A study of Mus musculus with 4 samples.

Results

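The E2F factors and pocket proteins are 10 mouse genes: E2f1, E2f2, E2f3, E2f4, E2f5, E2f7, E2f8, Rb1, Rbl1 and Rbl2. They were taken by exact gene symbol from the platform annotation of a mouse 3' expression array, and all 22 probe sets that carry only 1 of these symbols were kept. The 10 genes stand among 18193 genes with a single-symbol probe set. RNA was measured in 4 libraries of BA/F3, an interleukin 3 dependent mouse line that often stands in for early B cells. According to titles, source names and genotypes, 2 libraries are from cells with an inducible ETV6-RUNX1 (TEL-AML1) gene of human sequence and 2 from control cells without it. This fusion arises by a chromosomal translocation that is frequent in B-cell leukemia of children. All 4 received the inducer mifepristone at 32.5 pM for 16 h. The labels do not say whether the inducible line is 1 clone.

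Against the titles, the description field swaps the conditions of both replicate 1 libraries, while it matches them for both replicate 2 libraries. Both labels are therefore used for each comparison, and the text calls libraries by their titles, fusion-titled replicates 1 and 2 and control-titled replicates 1 and 2. The libraries described as fusion-expressing are control-titled replicate 1 and fusion-titled replicate 2. The series text speaks of promoter immunoprecipitation, but the protocols describe total RNA, and the values were read as RNA levels.

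E2F proteins bind DNA with a DP partner and set the transcription of genes for DNA synthesis and division. E2F1, E2F2 and E2F3 activate transcription, E2F4 and E2F5 act mainly with pocket proteins as repressors, and E2F7 and E2F8 are atypical repressors that bind without DP. The pocket proteins RB1, RBL1 (p107) and RBL2 (p130) hold E2Fs in check until cyclin-dependent kinases phosphorylate them.

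Of the 10 genes, 7 matched a RefSeq promoter entry on build GRCm38.p6, with 9 start sites. The 250 bases before each start were searched on both strands for the E2F letters TTTCCCGC, TTTGGCGC, TTTCGCGC and TTTGCCGC, and for the RUNX letters TGTGGT and TGCGGT. E2F letters occurred in 3 of the 9 windows, those of E2f3, E2f7 and Rbl1, and in 1.86% of all 32851 RefSeq windows. No window of E2f1, E2f2, E2f8 or Rbl2 held them, nor did the other E2f3 window. Only the starts with an entry were searched, so a missing match does not speak for other starts of these genes. RUNX letters occurred in 0 of the 9 windows and in 18.6% of all windows. The windows below belong to E2f2, the member with the widest differences between libraries, and to the 3 genes with an E2F match, which is in capitals and does not overlap another match. They are written 5′ to 3′ on the strand of the gene, upstream of the start. A match is a string of letters and not a measured binding site.
E2f2, chr4:136172024-136172273, plus strand, no match: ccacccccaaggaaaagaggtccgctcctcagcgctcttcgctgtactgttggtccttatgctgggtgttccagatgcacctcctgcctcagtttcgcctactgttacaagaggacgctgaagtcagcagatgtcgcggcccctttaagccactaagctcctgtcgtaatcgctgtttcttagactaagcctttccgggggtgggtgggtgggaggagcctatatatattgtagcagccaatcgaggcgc
E2f3, chr13:29986064-29986313, minus strand: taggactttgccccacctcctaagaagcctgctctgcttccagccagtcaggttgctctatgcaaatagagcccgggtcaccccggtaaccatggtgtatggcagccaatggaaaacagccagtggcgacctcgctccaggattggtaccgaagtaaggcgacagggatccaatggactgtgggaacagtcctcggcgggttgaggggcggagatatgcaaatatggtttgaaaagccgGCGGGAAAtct
E2f7, chr10:110745189-110745438, plus strand: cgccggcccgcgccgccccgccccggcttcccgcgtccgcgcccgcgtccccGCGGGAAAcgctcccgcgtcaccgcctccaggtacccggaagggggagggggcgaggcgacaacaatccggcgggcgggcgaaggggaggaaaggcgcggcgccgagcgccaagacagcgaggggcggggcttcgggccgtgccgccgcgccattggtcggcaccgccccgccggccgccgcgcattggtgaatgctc
Rbl1, chr2:157204535-157204784, minus strand: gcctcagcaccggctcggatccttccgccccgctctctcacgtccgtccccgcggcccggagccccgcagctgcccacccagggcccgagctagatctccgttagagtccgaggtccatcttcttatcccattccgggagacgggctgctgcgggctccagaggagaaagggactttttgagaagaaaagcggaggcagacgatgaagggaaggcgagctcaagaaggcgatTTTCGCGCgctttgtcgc
The match in E2f3 lies 11 to 4 bases before the start, that in Rbl1 18 to 11 bases and that in E2f7 198 to 191 bases. E2f7 and the brighter Rbl1 probe set, described below, read higher where the description says fusion, whereas E2f3 was lower there.

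The values are log2 levels made by the authors with GCRMA, which corrects background, normalizes and summarises each probe set. The lowest value in every library was 2.23, and between 54.8% and 55.0% of probe sets lay within 0.5 of it. Values near this floor are background. Tests were run on the 17720 probe sets that averaged 4 or more over the 4 libraries, so a probe set bright in only some libraries could enter through those. Of the receptor and B cell genes expected in BA/F3, Csf2rb (mean 14.3), Csf2rb2 (13.6) and Ptprc (12.9) were bright. Il3ra lay at 6.79, Cd79b at 8.55, Cd79a at 3.24 and Igll1 at 3.22, while Pax5, Ebf1, Vpreb1, Il7r, Rag1 and Dntt lay at the floor in all 4 libraries. All 5 T cell genes with a probe set lay at the floor, as did 4 of 6 stromal genes, the exceptions being Vim and Acta2, and Pf4 among 6 erythroid and megakaryocyte genes. Of the latter, Tal1 (12.9), Itga2b (9.76) and Gata1 (9.17) were brightest.

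Of the 22 member probe sets 14 were tested, and these covered 9 of the 10 genes. The gene without a tested probe set was E2f4, whose only probe set read between 2.24 and 2.26 in the 4 libraries. In all, 7 of the 8 untested probe sets lay within 0.5 of the floor in all 4 libraries, including 1 each of E2f1, E2f3, E2f4, E2f5, E2f8, Rb1 and Rbl1. The other, the Rbl1 probe set 1432604_at, read 4.05, 3.76, 3.76 and 3.29 in fusion-titled replicates 1 and 2 and control-titled replicates 1 and 2. A floor reading is no measure of whether the gene was expressed, since E2f1, E2f3, E2f5, E2f8, Rb1 and Rbl1 each also had a bright probe set.

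**Figure D1:**
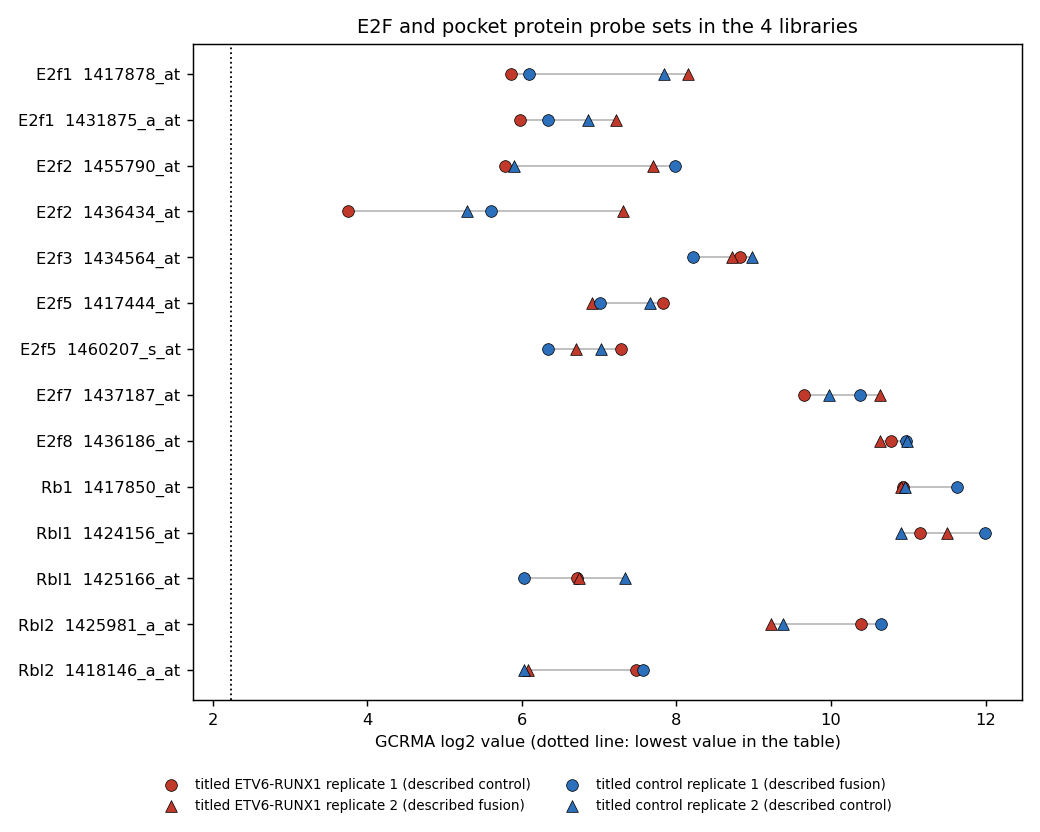
GCRMA log2 values (horizontal axis) of the 14 tested probe sets of E2F and pocket protein genes in each of the 4 libraries; colour gives the title, shape the replicate number, and the dotted line the lowest value in the table. For the E2f2 probe set 1455790_at the libraries described as fusion-expressing sit at 7.69 and 7.98 and the other libraries at 5.78 and 5.90, whereas the E2f1 and Rbl2 probe sets separate replicate 1 from replicate 2.

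If the titles are right, grouping by title asks how the induced fusion gene alters transcript levels against control cells given the same inducer. If the description field is right, each title group mixes both conditions and cannot answer this, and the reverse holds for the description groups. By title, no member passed the adjusted threshold. In limma 0 of 14 members reached an adjusted p under 0.05, as did 0% of all 17720 probe sets, and 0 members had an unadjusted p under 0.05, with 0.282% of all probe sets below it. Member differences, fusion minus control, ran from -0.38 for Rb1 to 0.31 for the E2f5 probe set 1460207_s_at, with a median of -0.0054 beside -0.012 over all tested probe sets. Limma's unadjusted p-values ran from 0.242 to 0.988. Groups failed to overlap at 2 of 14 member probe sets, 14.3%, beside 10.7% of all. These were E2f8 and Rb1, described under their roles below.

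By description, 0 of 14 members reached an adjusted p under 0.05 in limma, beside 0.0113% of all tested probe sets. The lowest adjusted p among the members was 0.121. Members with an unadjusted p under 0.05 numbered 4, or 28.6%, beside 19.7% of all. They were E2f2 (1455790_at), E2f7 and Rbl1 (1424156_at), 3 that were higher where the description says fusion, beside 10.6% of all, and E2f5 (1417444_at), which was lower, beside 9.14%. Groups did not overlap at 7 of 14 member probe sets, beside 50.4% of all, so the share of members that separated lay at the background. Of the 7, 4 were higher and 3 lower, beside 25.3% and 25.1% of all, and the median member difference was 0.17 beside -0.01 over all. Leaving out fusion-titled replicate 1 left 1 member with an unadjusted p under 0.05, and leaving out control-titled replicate 1 left 2.

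**Figure D2:**
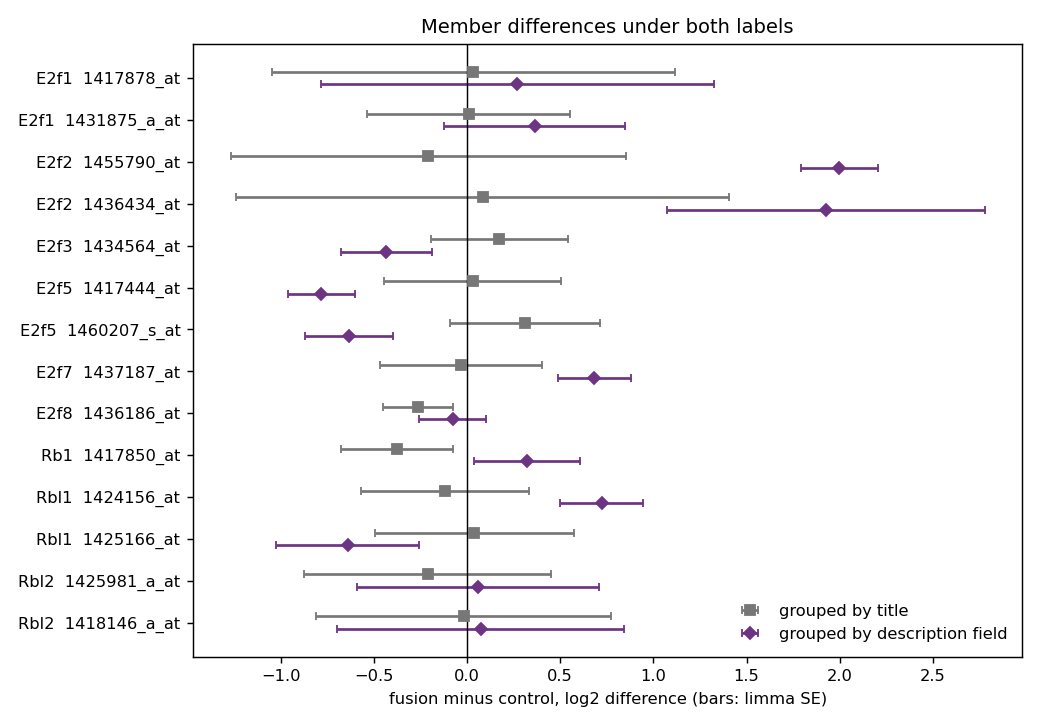
Log2 difference, fusion minus control, for the 14 tested member probe sets, with libraries grouped by title (squares) or by the description field (diamonds); bars are the limma standard error with 2 libraries per group. By title the differences lie between -0.38 and 0.31, and by description the E2f2 probe sets stand at 2.00 (1455790_at, SE 0.20) and 1.93 (1436434_at, SE 0.85).

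Among the activators, E2f2 differed most between libraries. Its brighter probe set, 1455790_at, read 5.78 and 7.69 in fusion-titled replicates 1 and 2, and 7.98 and 5.90 in control-titled replicates 1 and 2. Both libraries described as fusion-expressing were thus high and both described as control were low, with no overlap. The means by description were 7.84 ± 0.21 (SD, n = 2) and 5.84 ± 0.09, 4.00-fold apart (log2 2.00, SE 0.20, adjusted p = 0.121 in limma). By title the difference was -0.21 (SE 1.06). The adjusted p by description ran from 0.0593 to 0.481 over the alternative settings, under the replicate block and without control-titled replicate 1, and passed in none of them.

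The other E2f2 probe set, 1436434_at, read 3.75 and 7.30 in fusion-titled replicates 1 and 2, and 5.59 and 5.29 in control-titled replicates 1 and 2. It ordered the libraries differently, with fusion-titled replicate 2 alone at the top, fusion-titled replicate 1 alone at the bottom and both control-titled libraries close together between them. By description it differed by 1.93 (SE 0.85, adjusted p = 0.328 in limma), and by title by 0.08 (SE 1.32). The description difference rested on single libraries and became 1.07 without fusion-titled replicate 2, 1.15 without fusion-titled replicate 1, 2.78 without control-titled replicate 1 and 2.70 without control-titled replicate 2. Within replicate 2, where all labels name the same condition, the fusion library was higher by 1.79 at 1455790_at and by 2.01 at 1436434_at, or 3.46-fold and 4.02-fold. These were the only 2 of 14 member probe sets with a difference of at least 2-fold in that pair, 14.3% beside 11.4% of all tested probe sets, or 6.74% counting those higher in the fusion library. With 1 library per condition, this pair has no replicate check, and both libraries also enter the description grouping.

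The probe set 1436434_at had the widest range of all members, 3.55 on the log2 scale. Of 15047 tested single-symbol probe sets of other genes, those nearest to it after each was centred on its own mean belonged to Ccdc85b, at a Euclidean distance of 0.38 over the 4 libraries, Itga6 (0.58), Nacc2 (0.59), Tgm2 (0.60) and Ifi47 (0.67). Itga6 encodes an integrin alpha chain, Tgm2 a transglutaminase and Ifi47 an interferon-inducible GTPase. The other E2f2 probe set lay at 1.73 and the nearest of the other members, E2f1 at 1417878_at, at 1.70. With 4 libraries many profiles are alike, and the distances are a description.

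E2f1, the founding activator, separated the replicate numbers. Its probe set 1417878_at read 5.86 and 8.15 in fusion-titled replicates 1 and 2, and 6.09 and 7.85 in control-titled replicates 1 and 2. Both replicate 2 libraries were high, by 2.02 on average. The probe set 1431875_a_at read 5.98 and 7.22 in fusion-titled replicates 1 and 2, and 6.33 and 6.85 in control-titled replicates 1 and 2, and was likewise higher in replicate 2, by 0.88. By title the E2f1 probe sets differed by 0.03 (SE 1.08) and 0.01 (SE 0.55), and by description by 0.27 (SE 1.06) and 0.36 (SE 0.48). Differences between fusion and control under either label were thus smaller than the spread between libraries of 1 group.

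E2f3, the remaining activator, read 8.82 and 8.72 in fusion-titled replicates 1 and 2, and 8.21 and 8.98 in control-titled replicates 1 and 2. The value of control-titled replicate 1 was the lowest and the others lay close together. By description E2f3 was lower by 0.43 on the log2 scale (difference -0.43, SE 0.25, adjusted p = 0.418 in limma) without overlap, and by title it differed by 0.17 (SE 0.37).

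E2f5, a pocket-bound repressor, ran opposite to E2f2. The probe set 1417444_at read 7.82 and 6.90 in fusion-titled replicates 1 and 2, and 7.01 and 7.65 in control-titled replicates 1 and 2. Both libraries described as fusion-expressing were low and both described as control were high. Their means were 6.95 ± 0.07 and 7.74 ± 0.12 (SD, n = 2), a difference of -0.78 (SE 0.18, adjusted p = 0.173 in limma). The second E2f5 probe set, 1460207_s_at, whose suffix marks probes shared by several transcripts, read 7.28 and 6.70 in fusion-titled and 6.33 and 7.03 in control-titled replicates 1 and 2. It gave -0.63 (SE 0.24, adjusted p = 0.268 in limma), again without overlap. By title the E2f5 probe sets differed by 0.03 (SE 0.48) and 0.31 (SE 0.40).

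Of the atypical repressors, E2f7 read 9.65 and 10.63 in fusion-titled replicates 1 and 2, and 10.37 and 9.98 in control-titled replicates 1 and 2. By description the groups did not overlap, with means of 10.50 ± 0.18 and 9.82 ± 0.23 (SD, n = 2) and a difference of 0.68 (SE 0.20, adjusted p = 0.208 in limma). By title it was -0.03 (SE 0.44). E2f8 varied least, between 10.64 and 10.98. It read 10.78 and 10.64 in the fusion-titled and 10.96 and 10.98 in the control-titled libraries, which did not overlap. Its title difference of -0.26 (SE 0.19, limma unadjusted p = 0.242) had the smallest p of the members by title, although Rb1 and the E2f5 probe set 1460207_s_at differed by more. By description E2f8 differed by -0.08 (SE 0.18).

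Rb1, the retinoblastoma gene, read 10.93 and 10.90 in fusion-titled replicates 1 and 2, and 11.62 and 10.96 in control-titled replicates 1 and 2. A single library, control-titled replicate 1, was high, and the other 3 lay within a narrow band. By title Rb1 differed by -0.38 (SE 0.30), without overlap, and by description by 0.32 (SE 0.28, adjusted p = 0.589 in limma). Within replicate 2 the difference was -0.06.

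Rbl1 (p107) was measured by 2 tested probe sets that disagreed in direction. The brighter, 1424156_at, read 11.15 and 11.51 in fusion-titled replicates 1 and 2, and 11.99 and 10.90 in control-titled replicates 1 and 2. Without overlap, it was higher by description, by 0.72 (SE 0.22, adjusted p = 0.220 in limma). The probe set 1425166_at read 6.71 and 6.73 in the fusion-titled and 6.03 and 7.34 in the control-titled libraries, with a difference by description of -0.64 (SE 0.38, adjusted p = 0.440 in limma) and with overlap. Control-titled replicate 1 was the highest library at the brighter probe set and the lowest at the dimmer, and control-titled replicate 2 the reverse. By title the Rbl1 probe sets differed by -0.12 (SE 0.45) and 0.04 (SE 0.53). No direction can be given for the gene as a whole.

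Rbl2 (p130), the pocket protein characteristic of resting cells, separated the replicate numbers in the direction opposite to E2f1. The probe set 1425981_a_at read 10.38 and 9.22 in fusion-titled replicates 1 and 2, and 10.65 and 9.38 in control-titled replicates 1 and 2. The probe set 1418146_a_at read 7.47 and 6.08 in the fusion-titled and 7.56 and 6.03 in the control-titled libraries. Both were lower in replicate 2 without overlap, with replicate 2 minus replicate 1 differences of -1.21 and -1.46. Neither label separated them, with differences of -0.21 (SE 0.66) and -0.02 (SE 0.79) by title and 0.06 (SE 0.65) and 0.07 (SE 0.77) by description.

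Replicate 1 and replicate 2 libraries failed to overlap at 5 of 14 member probe sets, 35.7%, beside 33.6% of all tested probe sets. These were both E2f1 probe sets and Rbl1 at 1425166_at, higher in replicate 2, beside 15.4% of all, and both Rbl2 probe sets, lower in replicate 2, beside 18.2%. The labels do not say what the replicate numbers share, and no test was made of this split. The variance of a probe set over 4 libraries divides into a title, a description and a replicate share. The description share was the largest at 7 of 14 member probe sets, the replicate share at 5 and the title share at 2, beside 50.6%, 33.7% and 10.7% of all tested probe sets. With 4 libraries and no ties, the largest share falls on the split whose groups do not overlap. These counts therefore repeat those of non-overlap. The description share reached 98.8% at E2f2 (1455790_at) and 96.9% at E2f5 (1417444_at). The replicate share was 98.2% at E2f1 (1417878_at) and 99.7% at Rbl2 (1418146_a_at), and the title share was 87.5% at E2f8. For 11 of 14 probe sets, 78.6%, the fusion minus control difference by title had opposite signs in replicates 1 and 2, beside 72.9% of all.

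**Figure D3:**
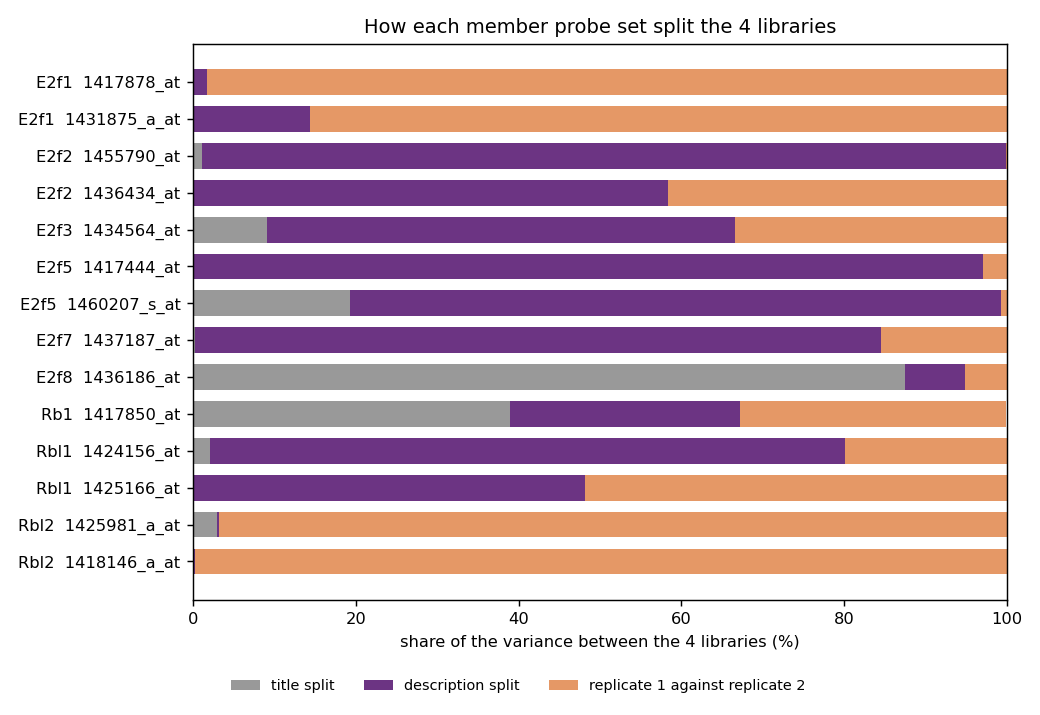
Share of the variance between the 4 libraries (horizontal axis, percent) that lay along the title split, the description split and the split between replicates 1 and 2, for each of the 14 tested member probe sets. E2f2 (1455790_at) and E2f5 (1417444_at) are nearly all description, E2f1 (1417878_at) and both Rbl2 probe sets nearly all replicate, and E2f8 mostly title.

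Some other measurements also differed along the description split. The mean level of 13 myeloid, mast cell and basophil genes was 5.02 and 5.43 in fusion-titled replicate 2 and control-titled replicate 1, which the description calls fusion, against 3.61 and 4.50. This mean includes Fcer1a, a gene chosen after its values were seen. Of the 13 genes 6 were tested, of which 5 were higher by description, while Mpo was lower (-1.49). Among the 5 is Fcer1a, which passed the filter only through the libraries described as fusion, so its direction was set by the filter. Tpsb2, Elane and Cd14 lay at the floor in all 4 libraries. The brightest were Gata2 (12.8), Ms4a2 (6.97) and Hdc (6.20). Fcer1a, a chain of the IgE receptor, read 7.69 and 9.91 in that same pair, and 2.37 and 2.32, at the floor, in the other libraries. Of the 5 tested erythroid and megakaryocyte genes 4 were higher and 1 lower by description, and the mean level of the 6 on the array was 7.62 and 7.73 in that pair against 7.33 and 7.90. Tal1, a hematopoietic transcription factor, differed by 1.39 (SE 0.15, limma unadjusted p = 0.00107) and Klf1, an erythroid one, by -2.37 (SE 0.56, limma unadjusted p = 0.0151). Of the 2 tested stromal genes, Acta2, smooth muscle actin, differed by 1.39 (SE 0.31, limma unadjusted p = 0.0128) and Vim by 0.20 (SE 0.14). The groups did not overlap for Fcer1a, Tal1, Klf1 and Acta2, of which Fcer1a and Klf1 were chosen after their values were seen. Of the other tested genes of these lists, Ms4a2, Hdc, Lyz2 and Epor did not overlap, while Gata2, Mpo, Gata1, Itga2b and Vim did. Groups failed to overlap by description at 50.4% of all tested probe sets. The 3' minus 5' difference of the dap labelling spike was 4.11 and 3.80 in the same pair, against 3.07 and 3.14, and that of the thr spike 5.40 and 5.21, against 4.86 and 4.56. Those of the lys and phe spikes also did not overlap, within narrow ranges of -0.75 to -0.63 and 0.48 to 0.64. Each spike has a second entry on the array. That of phe overlapped, with 1.30 and 1.08 in the same pair against 1.13 and 1.17. The second entries of dap, thr and lys did not overlap, that of lys within 1.10 to 1.37. The 3' minus 5' difference of Actb lay between 0.63 and 0.70 in all 4 libraries and that of Gapdh between -0.37 and -0.30. Other mouse controls varied more. That of the transferrin receptor was 1.31 in fusion-titled replicate 1 against 3.87 to 4.53 in the other libraries. That of pyruvate carboxylase ran from 2.22 to 3.94 and that of 18S RNA from -0.96 to -0.49. All of these overlapped by description. The part of the marker genes and of the labelling step in the E2f2, E2f5, E2f7 and Rbl1 differences was not tested. In bulk RNA, more cells of a type and more transcript per cell cannot be told apart.

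The regulators upstream of the pocket proteins were described from a list of 18 G1 cyclins, kinases and inhibitors, of which 14 were tested. None passed in limma under either label, the lowest adjusted p by description being 0.127. By description 9 were higher and 5 lower, with a median of 0.39, which became 0.21 without control-titled replicate 2. Cdkn2c, which encodes the CDK4/6 inhibitor p18, read 10.66 and 11.68 in fusion-titled and 11.72 and 10.45 in control-titled replicates 1 and 2, a difference by description of 1.15 (SE 0.13). Ccnd3, cyclin D3, differed by 1.08 (SE 0.15), Ccne2, cyclin E2, by 1.27 (SE 0.35) and Cdkn1a, which encodes p21, by 1.06 (SE 0.38). Cdkn2c, Ccnd3 and Ccne2, 3 of the 14, had an unadjusted p under 0.05, beside 19.7% of all tested probe sets in either direction. All 3 were higher, beside 10.6% of all. Cdkn1c and Cdkn2a lay at the floor in all 4 libraries. By title the median was -0.04, with Cks1b, a CDK subunit, at 0.10 (SE 0.08) and Cdk2 at -0.30 (SE 0.31).

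Of 10 DP partners and subunits of the MuvB core and its associated factors, 9 were tested, and none passed in limma under either label (lowest adjusted p by description 0.188). By description 5 were higher and 4 lower, with a median of 0.30, which became 0.01 without control-titled replicate 2. The DP gene Tfdp1 differed by -0.42 (SE 0.13) and Rbbp4, a histone-binding subunit, by -0.36 (SE 0.09). Over the 4 tested Rbbp4 probe sets the difference ran from -1.33 to -0.36. Lin54, the DNA-binding MuvB subunit, differed by 0.61 (SE 0.21) and Foxm1, a transcription factor of mitotic genes, by 0.66 (SE 0.24). A second Lin54 probe set gave 0.25, and the 3 tested Foxm1 probe sets ran from 0.66 to 0.99. By description an unadjusted p under 0.05 was reached by 1 higher gene, Lin54, beside 10.6% of all tested probe sets. It was also reached by 2 lower genes, Rbbp4 and Tfdp1, beside 9.14% of all. By title the median was -0.02, with Lin37 at -0.17 (SE 0.29) and Foxm1 at 0.18 (SE 0.45).

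Target genes of E2F and of the DREAM complex, in which pocket proteins, E2F4 or E2F5 and MuvB meet, were set beside the median of all tested probe sets, which was -0.012 by description. All 35 G1/S and DNA synthesis genes on the array were tested, of 38 listed, and none passed in limma under either label (lowest adjusted p by description 0.148). By description 22 were higher, 12 lower and 1 without a difference, with a median of 0.07, which lay between 0.11 and 0.15 with any 1 library left out. Mcm7 differed by 0.39 (SE 0.07) and Mcm3 by -0.33 (SE 0.08), both subunits of the replicative helicase. Each had 4 tested probe sets, which ran from 0.28 to 0.42 for Mcm7 and from -0.79 to -0.31 for Mcm3. Orc1, of the origin recognition complex, differed by 0.73 (SE 0.20), with 0.29 at a second probe set, and Pole, a DNA polymerase, by 0.45 (SE 0.16). These 4 of the 35 were the genes of the list with an unadjusted p under 0.05 by description, beside 19.7% of all tested probe sets. By title the median was -0.02. Mcm4 differed by 0.36 (SE 0.12, limma unadjusted p = 0.0459), although a second Mcm4 probe set gave 0.11. Mcm6 differed by 0.19 (SE 0.10), although a second Mcm6 probe set gave -0.04.

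All 29 genes of G2 and mitosis on the array were tested, of 30 listed, and none passed in limma under either label (lowest adjusted p by description 0.203). By description 18 were higher and 11 lower, with a median of 0.07. Its sign turned without control-titled replicate 1, to -0.0248, and without control-titled replicate 2, to -0.0085. Cdc20, an activator of the anaphase-promoting complex, differed by 0.28 (SE 0.08). Of the 29 genes it alone had an unadjusted p under 0.05 by description, beside 19.7% of all tested probe sets. Ccnb2, cyclin B2, differed by 0.25 (SE 0.11), Birc5, survivin, by 0.36 (SE 0.19) and Plk1, a mitotic kinase, by -0.32 (SE 0.12). By title the median was -0.03, with Ect2 at 0.26 (SE 0.21) and Bub1 at -0.20 (SE 0.22), although a second Bub1 probe set gave 0.007.

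**Figure D4:**
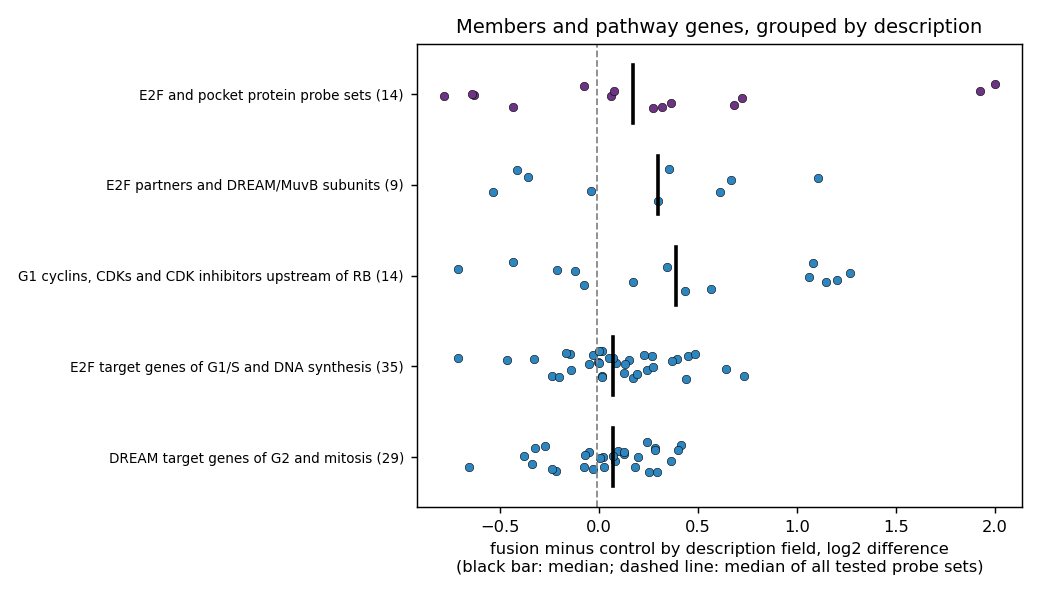
Log2 difference by the description field, fusion minus control, for the 14 tested member probe sets and for each tested gene of the 4 pathway lists (number in brackets); black bars are medians and the dashed line the median of all tested probe sets, -0.01. The G1/S and G2 and mitosis lists centre on 0.07 each, the upstream list on 0.39, and both E2f2 probe sets lie beyond every gene of the 4 lists.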

How the data were processed

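The deposited table holds log2 values. The submitters' processing notes name GCRMA 2.28.0 as the authors' software. The log2 scale was read from the values, and for filters, batch steps and tests the authors' choices are not stated in these sources. Precision is limited by the 4 arrays. Names came from the platform's gene annotation, and only probe sets with 1 symbol were used. All 307 probe sets of members and listed genes carried the current symbol of their Entrez identifier. After 64 control probe sets were left out, a mean of at least 4 over the libraries kept 17720.

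The two-sided tests used limma 3.58.1 under R 4.3.3, with lmFit and a trended eBayes, and Benjamini-Hochberg adjusted p-values across the whole tested table, 2 libraries per group and 2 residual degrees of freedom. The series text calls the replicates independent, but no label ties them to separate cultures, so p-values measure only the spread between these libraries, which may be technical. The procedure was tested on simulated data with independent noise and known groups. Such data check the code only, not the disputed labels or what the replicates share.

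The members and the 145 genes of the lists were chosen with earlier results of these data known. Every member probe set was described. Each pathway list gave up to 4 genes with the smallest p by description and 2 by title, taken at the probe set with the highest mean, and each marker list its 3 brightest. The replicate numbers were not used as pairs. Alternatives covered the filter, normalization, variance model, each library left out and a replicate block.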

Additional observations from a re-analysis of the deposited data

How the results depend on the processing

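No member passed an adjusted p of 0.05 under any setting run, by title or by description. Outside the settings that left out a library, no named difference changed sign. Over the whole table limma called 2 probe sets by description, 14 after quantile normalization, 10 after median centring, 1 without moderation and 0 with a filter at 3, without a filter, with the replicate block or without any 1 library. Members with an unadjusted p under 0.05 by description numbered 4. They numbered 3 without a filter, 5 without the mean-variance trend, 2 without moderation and 6 with the replicate block. With any library left out they were fewer than 4. By title they numbered 0, also with the replicate block, and 0 to 1 with a library left out. Raising the filter to a mean of 6 removed an E2f2 probe set and left 1 member at least 2-fold apart within replicate 2. Same-numbered libraries deviated from their group means with a correlation of -0.196 by title and 0.585 by description, and no label says what a number shares. The replicate block raised the probe sets with an unadjusted p under 0.05 by description from 3494 to 5579 over the whole table, and moved them by title from 50 to 48. Replicate numbers crossed between the groups, chosen after seeing the data, gave 0 member calls under both labels. With a library left out, differences by title spanned 0 and ranged as follows: E2f1 (1417878_at) -1.11 to 1.18, E2f1 (1431875_a_at) -0.61 to 0.63, E2f2 (1455790_at) -1.25 to 0.83, E2f2 (1436434_at) -1.69 to 1.86, E2f3 -0.21 to 0.56, E2f5 (1417444_at) -0.43 to 0.49, E2f5 (1460207_s_at) -0.0349 to 0.66, E2f7 -0.52 to 0.46, Rbl1 (1424156_at) -0.66 to 0.43, Rbl1 (1425166_at) -0.62 to 0.69, Rbl2 (1425981_a_at) -0.85 to 0.42, Rbl2 (1418146_a_at) -0.79 to 0.75, Lin37 -0.37 to 0.0214 and Foxm1 -0.30 to 0.67. By description the same held for E2f1 (1417878_at) -0.76 to 1.30, E2f1 (1431875_a_at) -0.083 to 0.81, E2f8 -0.24 to 0.0879, Rb1 -0.0405 to 0.68, Rbl2 (1425981_a_at) -0.66 to 0.77 and Rbl2 (1418146_a_at) -0.67 to 0.81. Without changing sign, differences by description moved by over 1.5 times for E2f2 (1436434_at) 1.07 to 2.78, E2f3 -0.69 to -0.18, Rbl1 (1424156_at) 0.48 to 0.96, Rbl1 (1425166_at) -0.99 to -0.29, Lin54 0.40 to 0.82, Foxm1 0.42 to 0.91, Cdkn1a 0.57 to 1.55, Ccnb2 0.16 to 0.34 and Birc5 0.17 to 0.55, and by title for Rb1 -0.71 to -0.0440, Cdk2 -0.58 to -0.0156, Ect2 0.0902 to 0.43, Bub1 -0.37 to -0.0337 and Cks1b 0.0586 to 0.14. The medians of the pathway lists by title all spanned 0, between -0.28 and 0.12. The cause of these changes was not tested, and with 3 libraries the lone one is assumed to vary like the others. E2f2, E2f3, E2f5, E2f7 and Rbl1 kept the direction of each probe set by description in every setting run. Where groups do not overlap, as at all of these but Rbl1 (1425166_at), leaving out 1 library cannot change the sign. The filter and variance settings leave the difference itself unchanged. The kept direction therefore adds nothing to the non-overlap.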
